A study of Arabidopsis thaliana with 20 samples.

Results

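PHV (AT1G30490), LHW (AT2G27230) and OPS (AT3G09070) are regulators of the central cylinder of the Arabidopsis thaliana root, the stele, which holds the xylem and phloem. They are 3 of the 13513 probe sets that the platform annotation assigns to 1 gene, and each has 1 probe set. They were taken by name, with earlier results of these data known. The question was whether ribosome-bound RNA from the pSHR and pWOL lines, which the labels call vascular, holds more of these transcripts than other root RNA does.

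All 20 arrays came from 7 day old Col-0 seedlings carrying His6FLAG-RPL18B, a tagged ribosomal protein, under 1 of 4 promoters. Polysomal RNA was RNA pulled down with the tagged ribosomes of pWOL:His6FLAG-RPL18B (vascular per the labels), pSHR:His6FLAG-RPL18B (vascular), pSCR:His6FLAG-RPL18B (endodermis) or p35S:His6FLAG-RPL18B (a broadly active viral promoter). Total RNA was taken from the p35S lysates. Each of these 5 RNA populations was sampled after 2 h of argon (hypoxia) and after 2 h in air, with 2 arrays per group, from the terminal 1 cm of the root. The labels number the arrays of a group but name no separate cultures, so p-values measure the spread among arrays only, and that spread may be technical. Root tips are bulk tissue, and fewer cells of a type and less RNA per cell cannot be told apart.

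In the root, the stele is enclosed by the endodermis, and its cells divide lengthwise to form the vascular files. PHV is a class III homeodomain leucine zipper (HD-ZIP III) transcription factor, one of a family that sets xylem cell fate. In the root these messenger RNAs are restricted to the inner stele by microRNAs that are made in the endodermis and move inwards. LHW is a basic helix-loop-helix transcription factor that pairs with TMO5 and drives the cell divisions that widen the vascular cylinder, partly through local cytokinin synthesis. OPS (OCTOPUS) is a membrane-associated protein at one pole of young phloem cells, where it promotes protophloem differentiation and counteracts the kinase BIN2 of brassinosteroid signalling.

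Values are log2 expression levels. Array medians lay between 6.41 and 6.55. A ribosomal control probe set (25S) read 10.18 in pSCR hypoxia replicate 2 and 12.69 to 14.34 on the other arrays. For the GAPDH control, the level at the 3 prime end exceeded that at the 5 prime end, a measure of how far cDNA extended, by 4.57 ± 0.33 in pWOL, 4.54 ± 0.15 in pSHR, 4.37 ± 0.51 in pSCR, 3.68 ± 0.39 in p35S and 4.55 ± 0.29 in total RNA (SD, n = 4 arrays each). The p35S mean was the lowest of the 5, and the part of this in results against p35S was not tested.

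PHV was measured at different levels in the RNA populations in air. Its log2 levels in air were 9.24 and 9.54 in pWOL, 10.00 and 9.59 in pSHR, 9.00 and 9.09 in pSCR, 10.29 and 10.04 in p35S, and 7.96 and 7.94 in total RNA. The order was p35S, pSHR, pWOL, pSCR and total RNA, and no neighbouring groups overlapped. With 2 arrays a group this is common: at these steps 44.5%, 47%, 52.1% and 50.5% of all probe sets did not overlap. Of the 4 steps between neighbours in that order, only the lowest, from pSCR to total RNA, passed the limma test. The steps from p35S to pSHR (0.37 ± 0.24, SE), pSHR to pWOL (0.41 ± 0.24) and pWOL to pSCR (0.34 ± 0.24) did not.

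LHW in air read 7.20 and 7.53 in pWOL, 7.99 and 7.96 in pSHR, 7.58 and 7.51 in pSCR, 8.76 and 8.48 in p35S, and 7.30 and 6.89 in total RNA. Its order was p35S, pSHR, pSCR, pWOL and total RNA. The p35S arrays stood above all others, pSHR stood above the remaining 3 groups, and those 3 lay close, with the pWOL arrays overlapping both pSCR and total RNA. Such gaps are common: 44.5% of all probe sets did not overlap between p35S and pSHR, and 44.9% between pSHR and pSCR. None of the 4 steps between neighbours passed the limma test.

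OPS in air read 5.81 and 5.14 in pWOL, 5.62 and 5.89 in pSHR, 6.33 and 5.22 in pSCR, 5.81 and 5.69 in p35S, and 5.04 and 5.48 in total RNA. All neighbouring groups overlapped. The gene was dim: its highest array (6.33) was below the lowest array median.

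**Figure D1:**
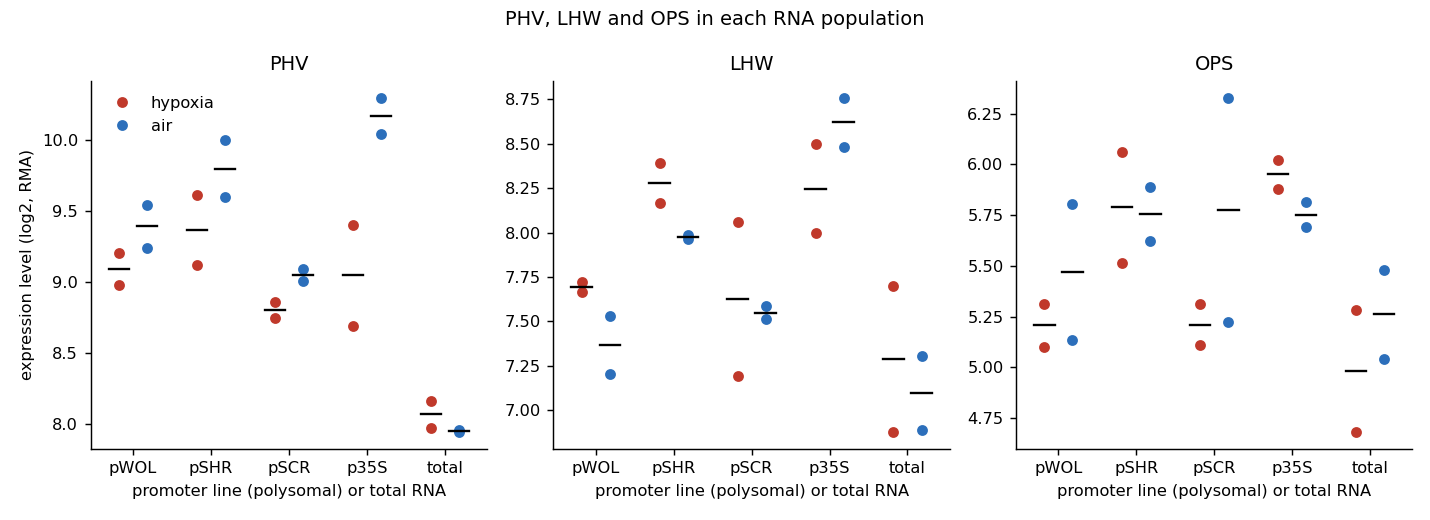
Log2 expression levels of PHV, LHW and OPS (vertical axes, scaled separately) in polysomal RNA of the 4 promoter lines and in total RNA, with hypoxia in red left of air in blue; points are arrays (2 per group) and bars are group means. PHV and LHW have their highest air values in p35S (10.29 and 8.76), and total RNA lies lowest for PHV.

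None of the 3 transcripts passed as higher in a vascular line than in the p35S line in air. Set against p35S, 0 of 3 genes were higher in pWOL or pSHR by the limma test, where 6.64% and 1.31% of all probe sets were called higher. In pWOL 2 of 3 were lower, against 5.84% of all probe sets, and in pSHR 0 of 3, against 1.19%. LHW was lower in pWOL than in p35S by the limma test, with a log2 difference of -1.26 ± 0.30 (SE; 2.39-fold lower; adjusted p = 0.0162). PHV was lower in pWOL by a smaller amount, -0.78 ± 0.24 (limma adjusted p = 0.0492). The PHV call is marginal: it was lost without any 1 of the 4 arrays compared (-0.93 to -0.62) and under each of the 6 other settings (limma adjusted p 0.0520 to 0.103), including a replicate block (0.0581). The LHW call was lost without p35S air replicate 1 (-1.12, limma adjusted p = 0.113) or pWOL air replicate 1 (-1.09, limma adjusted p = 0.115).

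In pSHR the differences from p35S in air were -0.37 for PHV, with a 95% interval of -0.88 to 0.14, and -0.65 for LHW (-1.30 to 0.00). For OPS the difference was 0.00 (-0.73 to 0.73) in pSHR and -0.28 (-1.01 to 0.45) in pWOL. These intervals leave room for a modest excess of OPS in either line, and of PHV in pSHR, and for deficits of similar or larger size.

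With both vascular lines averaged (4 arrays against 2), LHW was lower than in p35S, with a difference of -0.95 ± 0.26 (limma adjusted p = 0.0381, among 4.04% of probe sets called lower). This call did not survive leaving out any 1 of the 6 arrays, with differences of -1.09 to -0.82 and limma adjusted p of 0.0538 to 0.278. PHV had -0.57 ± 0.21 (limma adjusted p = 0.108), with all 4 vascular arrays below both p35S arrays (as for 13.6% of all probe sets), and OPS had -0.14 ± 0.29 (limma adjusted p = 0.869). Over both treatments LHW was lower than in p35S in pWOL (-0.91 ± 0.21, limma adjusted p = 0.0102) and in the vascular mean (-0.61 ± 0.19, limma adjusted p = 0.0391). There 9.35% and 8.5% of all probe sets were called lower. The pWOL arrays all lay below the p35S arrays, as 7% of all probe sets did. In pSHR LHW did not pass (-0.31 ± 0.21), and PHV and OPS passed in neither line. These fits were not repeated with arrays left out.

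The endodermal line was also low for both transcription factors. In pSCR, 2 of 3 genes were lower than in p35S in air, where 5.53% of all probe sets were. PHV differed by -1.12 ± 0.24 (2.17-fold lower; limma adjusted p = 0.0105) and LHW by -1.07 ± 0.30 (2.11-fold lower; limma adjusted p = 0.0403). OPS differed by 0.02 ± 0.34. The PHV call was lost without p35S air replicate 1 (-0.99) or pSCR air replicate 1 (-1.07). The LHW call was lost without any 1 of the 4 arrays (-1.21 to -0.94). It was also lost with median centring (limma adjusted p = 0.0523) or a replicate block (limma adjusted p = 0.05003). Over both treatments pSCR was below p35S for PHV (-0.68 ± 0.17, limma adjusted p = 0.0155) and LHW (-0.85 ± 0.21, limma adjusted p = 0.0173). There 8.42% of all probe sets were called lower, and the arrays of both genes overlapped. These fits over both treatments were not repeated with arrays left out.

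Against the endodermis rather than p35S, the vascular lines had the higher means for PHV. In air PHV was 0.75 ± 0.24 above pSCR in pSHR (limma adjusted p = 0.118) and 0.34 ± 0.24 above it in pWOL (limma adjusted p = 0.446), where 3.17% and 8.96% of all probe sets were called. The 4 vascular arrays lay above both pSCR arrays, as 12.9% of all probe sets did. The mean of both lines exceeded pSCR by 0.55 ± 0.21, which did not pass (limma adjusted p = 0.137, where 3.45% of probe sets were called higher). Over both treatments (4 arrays against 4), PHV was higher in pSHR than in pSCR by 0.66 ± 0.17 log2 units, 1.58-fold (limma adjusted p = 0.0463, where 2.31% of probe sets were called higher), with all pSHR arrays above all pSCR arrays, as 3.16% of probe sets were. This call was lost without 7 of the 8 arrays in turn (differences 0.53 to 0.76), the exception being pSHR hypoxia replicate 1. It was also lost under 4 of the 6 other settings, such as from the compared arrays alone (limma adjusted p = 0.142) and with the replicate number as a block (limma adjusted p = 0.0554).

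For LHW the pSHR excess over pSCR over both treatments was 0.54 ± 0.21 and its excess over pWOL 0.60 ± 0.21 (limma adjusted p = 0.204 and 0.181). The LHW arrays of pSHR all lay above those of pWOL over both treatments, as 2.16% of all probe sets did. PHV differed between pSHR and pWOL by 0.34 ± 0.17 and OPS by 0.43 ± 0.24 (limma adjusted p = 0.343 and 0.408), so the mean was higher in pSHR for each of the 3 genes and passed for none, where 1.47% of all probe sets did. In pWOL against pSCR over both treatments the differences were 0.32 ± 0.17 for PHV, -0.06 ± 0.21 for LHW and -0.15 ± 0.24 for OPS, and 0 of 3 passed, against 8.69% of all probe sets. For the mean of both lines against pSCR in air, LHW had 0.12 ± 0.26 and OPS -0.16 ± 0.29 (limma adjusted p = 0.873 and 0.842). For LHW in pWOL against pSCR in air the difference was -0.18 ± 0.30, and for OPS -0.30 ± 0.34. In pSHR against pSCR in air LHW had 0.43 ± 0.30 and OPS -0.02 ± 0.34. In hypoxia the pSHR differences from pSCR were 0.56 ± 0.24 for PHV, 0.65 ± 0.30 for LHW and 0.58 ± 0.34 for OPS. None passed, where 0.136% of all probe sets were called. For each of the 3 genes the pSHR arrays lay above the pSCR arrays, as 16.6% of all probe sets did. The pWOL differences from pSCR in hypoxia were 0.29 for PHV, 0.07 for LHW and -0.004 for OPS, and none passed.

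In air, PHV was higher in the ribosome-bound RNA of each of the 4 lines than in total RNA. In p35S in air PHV was higher than in total RNA by 2.22 ± 0.24 log2 units, 4.65-fold (limma adjusted p = 5.57e-04). Of all probe sets 3.78% were called higher in that comparison, and 0.202% had a larger difference. LHW was higher by 1.53 ± 0.30, 2.88-fold (limma adjusted p = 0.0108), and 1.3% of probe sets had a larger difference. OPS differed by 0.49 ± 0.34 (limma adjusted p = 0.479). The LHW call was lost without p35S air replicate 1 (1.39, limma adjusted p = 0.0793) or total RNA air replicate 2 (1.32, limma adjusted p = 0.0978), and the PHV call held without each array.

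The other lines stood above total RNA for PHV by 1.44 ± 0.24 in pWOL, 1.85 ± 0.24 in pSHR (SE) and 2.14-fold in pSCR, where the log2 interval was 0.58 to 1.61. Their limma adjusted p were 0.00226, 0.00276 and 0.0152, with 7.09%, 2.17% and 4.18% of all probe sets called higher. The pSCR call was lost without any 1 of its 4 arrays (limma adjusted p 0.0588 to 0.0917), and the pSHR call when fitted from the compared arrays alone (0.0940). The total RNA came from p35S plants, so line and RNA fraction differ together here and cannot be told apart. LHW differed from total RNA by 0.27 ± 0.30 in pWOL, 0.88 ± 0.30 in pSHR and 0.45 ± 0.30 in pSCR, and OPS by 0.21 to 0.51 (each SE 0.34). None of these 6 differences passed. Over both treatments LHW was called higher than total RNA in pSHR (0.94), as 7.6% of all probe sets were. It was not called in pWOL (0.34) or pSCR (0.39), and OPS was called in none of the 3 lines.

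**Figure D2:**
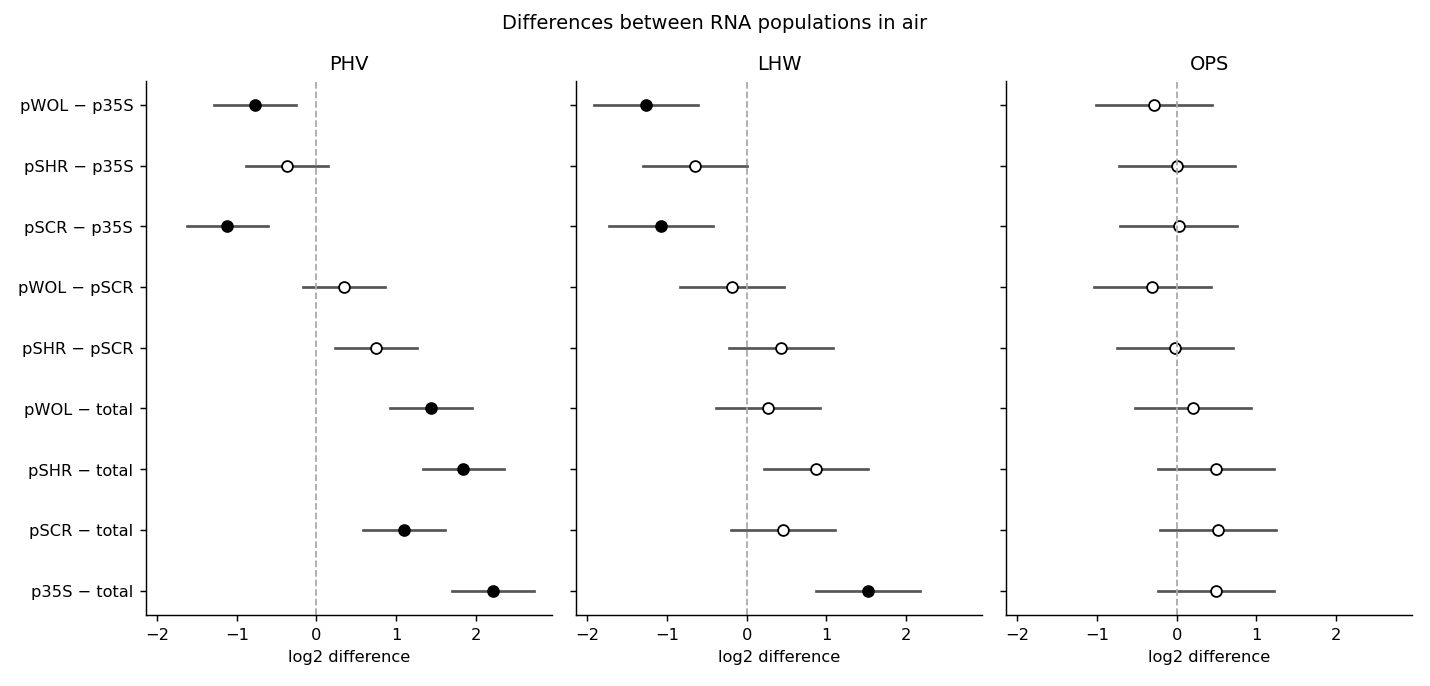
Log2 differences between RNA populations in air for PHV, LHW and OPS (horizontal axes), each row a comparison with the population named first minus the other; points are limma estimates, bars 95% intervals, and filled points have adjusted p below 0.05. The filled PHV and LHW points lie left of 0 against p35S and right of 0 against total RNA, and OPS has no filled point.

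Few other stele genes could be set beside these. Of 67 loci listed for HD-ZIP III factors, LHW partners, phloem, xylem and other stele tissue, 4 had a probe set of their own in the annotation: PHV, LHW, OPS and AT5G02460, which was entered in the phloem list. AT5G02460 averaged 5.52 in pWOL, 5.42 in pSHR, 5.27 in pSCR, 6.30 in p35S and 5.19 in total RNA in air. It was thus highest in p35S, as PHV and LHW were. It was lower in pSCR than in p35S, with a difference of -1.03 ± 0.29 (limma adjusted p = 0.0411), and higher in p35S than in total RNA by 1.11 ± 0.29 (limma adjusted p = 0.0388). Both calls were lost without p35S air replicate 2 (-0.60 and 0.68), without either array of the other group, and from the compared arrays alone (limma adjusted p = 0.119 and 0.103). The pSCR call was also lost with median centring or quantile normalization (limma adjusted p = 0.0548 and 0.0519), and the total RNA call with the lysate as a block (0.122). Its differences from p35S were -0.78 ± 0.29 in pWOL and -0.87 ± 0.29 in pSHR, which did not pass, although the pWOL difference did without p35S air replicate 1 (-1.20, limma adjusted p = 0.0421). With AT5G02460 included, 3 of 4 stele genes were called higher in p35S than in total RNA in air, against 3.78% of all probe sets. Of these calls, those of LHW and AT5G02460 were lost with some arrays left out. The median difference of the 4 was 1.32, against a median of -0.01 over all probe sets. Against p35S the median of the 4 was -0.78 in pWOL and -0.51 in pSHR, against -0.02 and -0.01 over all probe sets. Compared with pSCR in air, AT5G02460 was not called in pWOL, pSHR or their mean. In hypoxia it was called higher in that mean, as 0.167% of all probe sets were, but in neither line alone. Over both treatments it was called higher in the mean and in pWOL, as 4.29% and 4.73% of all probe sets were, and not in pSHR. These comparisons were not refitted for AT5G02460 with arrays left out.

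Some markers of other root tissues had the opposite sign to PHV and LHW. Of the 7 measured markers of endodermis, cortex, root hairs and green tissue, 3 were lower in p35S than in total RNA in air, against 2.55% of all probe sets, and 0 were higher, against 3.78%. These were the root hair expansins EXPA7 (-2.47 ± 0.50) and EXPA18 (-2.42 ± 0.40) and the cortex marker AT1G09750 (-2.38 ± 0.32). The others were GSO1 (-1.03 ± 0.33), a receptor kinase needed to seal the endodermis, JKD (-0.44 ± 0.47), a zinc finger factor of the ground tissue, AT1G62500 (0.04 ± 0.20), entered in the cortex list, and RCA (0.46 ± 0.28), Rubisco activase of green tissue. The EXPA7 call was lost without p35S air replicate 1 (-1.81) or either total RNA air array (-2.22 and -2.72, limma adjusted p = 0.0787 and 0.0501). With the lysate as a block, fitted to the p35S and total RNA arrays, the EXPA7 and AT1G09750 calls were both lost (limma adjusted p = 0.0706 and 0.0528).

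The tagged lines differed from p35S in these markers too. In pSCR GSO1 was above p35S by 2.32 ± 0.33 and JKD by 1.91 ± 0.47, both called, and AT1G09750 by 2.24 ± 0.32. In pWOL the difference was 2.59 ± 0.47 for JKD and 3.39 ± 0.32 for AT1G09750, both called, and 0.42 ± 0.33 for GSO1, which did not pass. In pSHR AT1G09750 was called, at 2.30 ± 0.32, and JKD (1.55 ± 0.47) and GSO1 (0.87 ± 0.33) were not. The JKD call in pSCR was lost without p35S air replicate 1 (2.11) or 2 (1.72) or pSCR air replicate 1 (1.63), and the AT1G09750 call in pSHR from the compared arrays alone (limma adjusted p = 0.0915) or without p35S air replicate 1 (2.09). EXPA7 had 1.29 ± 0.50 in pWOL, 1.65 ± 0.50 in pSHR and 1.55 ± 0.50 in pSCR, the last passing without p35S air replicate 2 (2.21, limma adjusted p = 0.0380), and EXPA18 had 1.04, 1.03 and 0.31 (each SE 0.40). AT1G62500 lay within -0.11 to 0.06 and RCA within -0.60 to -0.03 of p35S in the 3 lines. Of the measured endodermis and cortex markers, 2 of 4 were thus called higher than p35S in pWOL, against 6.64% of all probe sets. In pSHR 1 of 4 was, against 1.31%, and both lines are labelled vascular. In pSCR, labelled endodermis, 2 of 2 endodermis and 1 of 2 cortex markers were, against 4.42%. The part of tissue makeup in the results on PHV, LHW and OPS was not tested.

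**Figure D3:**
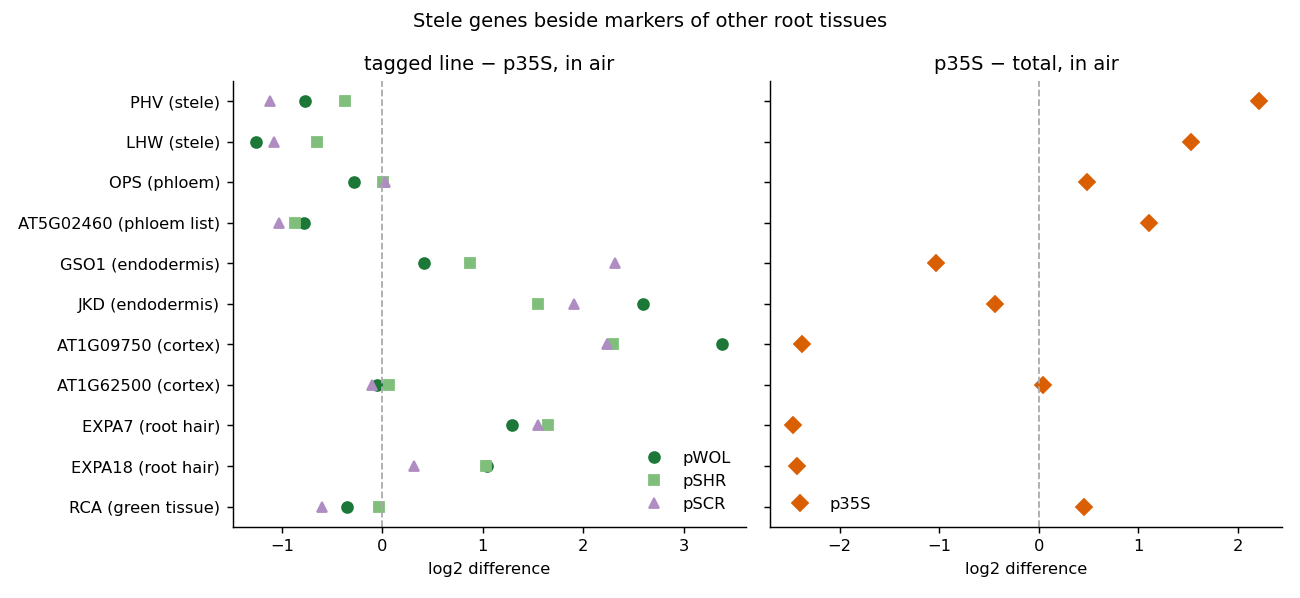
Log2 differences in air of 4 stele genes and 7 markers of other root tissues (rows), for pWOL, pSHR and pSCR minus p35S on the left and p35S minus total RNA on the right. PHV, LHW and AT5G02460 lie left of 0 on the left and right of 0 on the right, while AT1G09750 (2.24 to 3.39 on the left and -2.38 on the right) and the expansins lie on the other sides of 0.

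PHV was lower in ribosome-bound RNA after hypoxia. Its hypoxia levels were 9.20 and 8.98 in pWOL, 9.12 and 9.61 in pSHR, 8.86 and 8.75 in pSCR, 9.40 and 8.69 in p35S, and 7.97 and 8.16 in total RNA. Over the 4 lines (8 arrays against 8) PHV fell by 0.52 ± 0.12 log2 units (limma adjusted p = 0.00674), where 10.8% of all probe sets were called lower and 8.52% had a more negative difference. The call held under each of the 6 other settings, and without each of the 16 arrays in turn (-0.61 to -0.43). The mean was lower in hypoxia in each of the 4 lines.

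The largest difference was in p35S, where PHV fell by 1.12 ± 0.24 (limma adjusted p = 0.0147, against 1.92% of probe sets called lower). Both hypoxia arrays lay below both air arrays, as 24.1% of all probe sets did. The call was lost without p35S air replicate 1 (-0.99, limma adjusted p = 0.131) or p35S hypoxia replicate 2 (-0.76, limma adjusted p = 0.178), and from the 4 compared arrays alone (0.157). In the other lines PHV differed by -0.30 ± 0.24 in pWOL, -0.43 ± 0.24 in pSHR and -0.24 ± 0.24 in pSCR, and none passed, where 8.52%, 4.56% and 5.96% of all probe sets did. In total RNA the difference was 0.12 ± 0.24, with an interval of -0.39 to 0.63, where 2.92% of probe sets were called. Tested directly, the hypoxia difference of p35S was 1.24 ± 0.34 more negative than that of total RNA, with an unadjusted limma p of 0.00269 and an adjusted p of 0.438, where 0.0132% of probe sets were called. Those of pWOL, pSHR and pSCR were less negative than that of p35S by 0.82, 0.69 and 0.88 (each SE 0.34; limma adjusted p = 0.307, 0.529 and 0.397), where 0.158%, 0% and 0.0264% of probe sets were called. In the pSHR comparison limma called 0 probe sets, and 2291 had an unadjusted p below 0.05. PHV was therefore not shown to respond differently between populations.

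LHW did not pass in hypoxia in any population. Its hypoxia levels were 7.72 and 7.67 in pWOL, 8.17 and 8.39 in pSHR, 8.06 and 7.19 in pSCR, 7.99 and 8.50 in p35S, and 6.88 and 7.70 in total RNA. Hypoxia minus air was 0.33 in pWOL, 0.31 in pSHR, 0.08 in pSCR, -0.37 in p35S and 0.19 in total RNA (each SE 0.30). Over the 4 lines it was 0.08 ± 0.15, with an interval of -0.24 to 0.41 (limma adjusted p = 0.767). The pWOL and pSHR hypoxia arrays lay above their air arrays, as 26.1% and 19% of all probe sets did, and in the other populations the treatments overlapped. The differences of pWOL, pSHR and pSCR from p35S in hypoxia response were 0.70, 0.68 and 0.45 (each SE 0.43), and that of p35S from total RNA was -0.57 ± 0.43. None passed.

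OPS likewise passed nowhere. In hypoxia it read 5.31 and 5.10 in pWOL, 6.06 and 5.52 in pSHR, 5.31 and 5.11 in pSCR, 5.88 and 6.02 in p35S, and 4.68 and 5.28 in total RNA. Hypoxia minus air was -0.26 in pWOL, 0.03 in pSHR, -0.56 in pSCR, 0.20 in p35S and -0.28 in total RNA (each SE 0.34). Over the 4 lines it was -0.15 ± 0.17, with an interval of -0.51 to 0.22 (limma adjusted p = 0.612). The p35S hypoxia arrays lay above their air arrays, as 21.5% of all probe sets did, and in the other populations the treatments overlapped. Its response differed from that of p35S by -0.46 in pWOL, -0.17 in pSHR and -0.76 in pSCR, and the p35S response from that of total RNA by 0.48 (each SE 0.48), none of which passed. AT5G02460, by contrast, rose over the 4 lines by 1.05 ± 0.15 (limma adjusted p = 1.71e-04, against 9.69% of probe sets called higher). Line by line, it was called higher in pWOL and pSHR, and not in pSCR or p35S. In pWOL and pSHR 4.18% and 2.68% of all probe sets were called higher. Its responses in pWOL, pSHR and pSCR were not called different from that in p35S. The calls by line were not refitted with arrays left out. Over the 4 lines (8 against 8 arrays) EXPA7 fell by 2.23 ± 0.25, EXPA18 by 1.74 ± 0.20, JKD by 0.75 ± 0.23 and AT1G09750 by 0.57 ± 0.16. Each was called, where 10.8% of all probe sets were called lower. GSO1 (-0.32 ± 0.16), AT1G62500 (0.10 ± 0.10) and RCA (-0.11 ± 0.14) did not pass. The JKD call was lost without any of 9 of the 16 arrays (-0.80 to -0.58) and from the compared arrays alone (limma adjusted p = 0.0642). The AT1G09750 call was lost without p35S air replicate 2, pWOL air replicate 2 or pWOL hypoxia replicate 1 (-0.52 to -0.51).

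**Figure D4:**
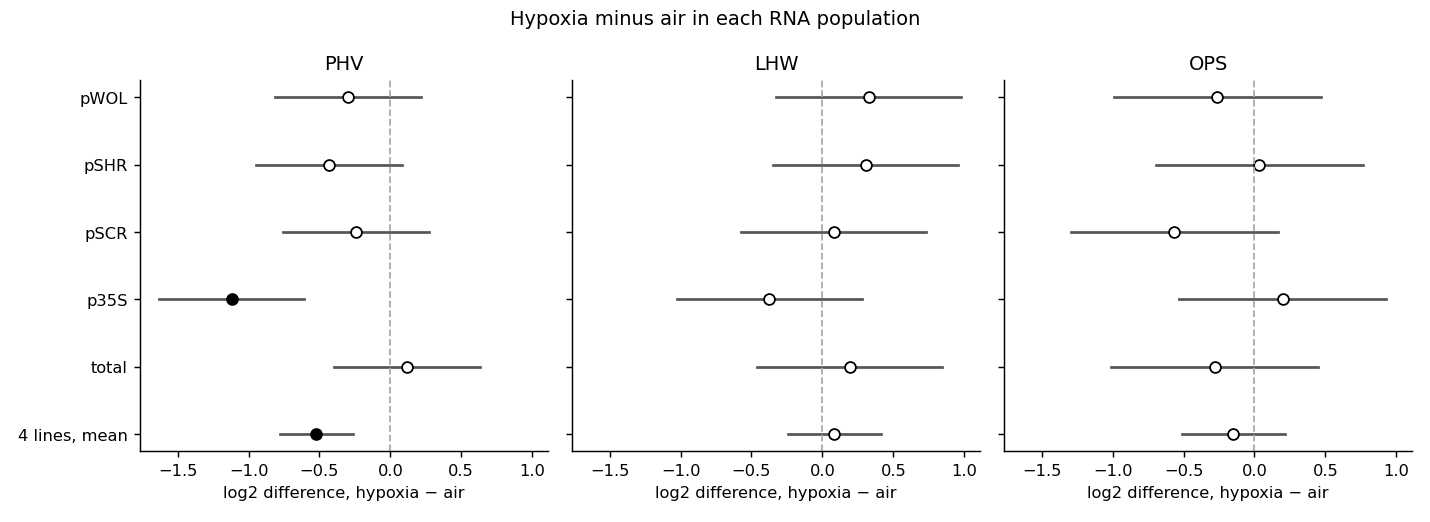
Log2 differences of hypoxia minus air for PHV, LHW and OPS (horizontal axes) in each RNA population and over the 4 promoter lines; points are limma estimates, bars 95% intervals, and filled points have adjusted p below 0.05. Only PHV has filled points, in p35S (-1.12) and over the 4 lines (-0.52).

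In hypoxia p35S no longer had the highest mean for PHV. The gene in pWOL, pSHR and pSCR then differed from p35S by 0.05, 0.32 and -0.24 (each SE 0.24). Its order became pSHR, pWOL, p35S, pSCR and total RNA, the first 4 groups overlapped with their neighbours, and pSCR exceeded total RNA by 0.74 ± 0.24, which did not pass (limma adjusted p = 0.152). LHW differed from p35S by -0.55, 0.03 and -0.62 (each SE 0.30). Its order was pSHR, p35S, pWOL, pSCR and total RNA, with overlap at 3 of 4 steps. The pWOL arrays lay below the p35S arrays, as 26.7% of all probe sets did. OPS differed from p35S by -0.74, -0.16 and -0.74 (each SE 0.34), and both its pWOL and its pSCR arrays lay below both p35S arrays, as 26.7% and 22.6% of all probe sets did. Its order was p35S, pSHR, pSCR, pWOL and total RNA. Of the 3 genes 0 passed in any of these 3 lines, where the limma calls covered 8.29%, 3.79% and 4.42% of all probe sets in either direction. PHV was again above total RNA in p35S in hypoxia, by 0.98 ± 0.24 (limma adjusted p = 0.0465, against 1.75% of probe sets called higher). That call was lost under 6 of 7 other settings and without p35S hypoxia replicate 1 (0.62), total RNA hypoxia replicate 1 (0.88) or 2 (1.07). LHW had 0.96 ± 0.30 and OPS 0.97 ± 0.34 there (limma adjusted p = 0.107 and 0.147). PHV was also called above total RNA in hypoxia in both vascular lines. The difference was 1.297 ± 0.238 in pSHR (limma adjusted p = 0.0112) and 1.025 ± 0.238 in pWOL (limma adjusted p = 0.0213). In these comparisons 2.72% and 3.51% of all probe sets were called higher, and LHW and OPS passed in neither. The pSHR and pWOL fits against total RNA in hypoxia were not repeated with arrays left out.

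Across the 10 group means, the profiles of the 3 genes correlated at r = 0.78 for PHV and LHW, 0.67 for PHV and OPS and 0.72 for LHW and OPS. These are descriptions over 10 points that share amplification and normalization and, for p35S and total RNA, their lysates. The single-gene probe sets with the most similar profiles, among about 5820 whose group means span at least 1 log2 unit, were KINESIN-13A (r = 0.94), TRM19 (0.94), PAP85 (0.93), AT4G32330 (0.93) and AT5G58930 (0.91) for PHV. For LHW they were AT5G17160 (0.97), AT3G14890 (0.95), BUBR1 (0.94), AT3G60380 (0.94) and AT4G27240 (0.92). For OPS they were AT5G02430 (0.87), AT3G23090 (0.87), TRM19 (0.86), AT4G23040 (0.86) and AT3G52220 (0.86). TRM19 was the gene common to the PHV and OPS sets. Set against these 5820 probe sets, LHW ranked 77 for PHV and OPS ranked 245, so other probe sets followed PHV more closely than LHW and OPS did. For LHW, PHV ranked 112 and OPS 196, and for OPS, LHW ranked 75 and PHV 135. LHW's own nearest profile, AT5G17160, averaged 7.68 in pWOL, 8.23 in pSHR and 7.64 in pSCR in air, against 8.91 in p35S.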

How the data were processed

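The data were 20 Affymetrix arrays of Arabidopsis root tip RNA, 2 in each of 10 groups. According to the labels' protocols, 400 pg of RNA was amplified in 2 linear rounds. The authors deposited log2 expression values; RMA and the affy package are named in the submitters' processing notes, without versions. Values ran from 3.35 to 14.88 and were not rescaled. The number of arrays limits the precision.

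Groups followed the sample titles. After removal of 64 control probe sets, limma 3.58.1 in R 4.3.3 was fitted to the 22746 others. The model held 10 group means over all 20 arrays (10 residual degrees of freedom), and variances were moderated by empirical Bayes. Benjamini-Hochberg adjustment ran over all probe sets within a comparison, and an adjusted p below 0.05 was a call. The ± beside a log2 difference is the model's SE. Gene names came from the platform annotation (13513 probe sets with 1 gene, 503 with several, 8730 with none listed) and the RefSeq gene table.

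The members and lists were chosen with earlier results of these data known. Comparisons of pSCR, pSHR and pWOL with total RNA were added after their values were seen. Named genes are the members, the measured genes of the lists and the 5 most similar profiles per member. The labels do not say whether equal replicate numbers mark a shared lysate or day. Over 45 pairs of groups, correlations of the replicate differences ran from -0.33 to 0.29, and p35S and total RNA in air, from the same lysates, had -0.33. The alternatives tried were a replicate block, a lysate block, only the arrays compared, a filter on the dimmest 25% of probe sets, quantile normalization, median centring, trended robust moderation, and omission of each array.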

Additional observations from a re-analysis of the deposited data

How the results depend on the processing

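Of 510 values for PHV, LHW and OPS under other settings, 488 kept their direction and side of the threshold, 20 lost their call and 2 reversed. Of 468 with 1 array left out, 397 kept both, 36 lost their call and 35 reversed. Causes of these changes were not tested. With an array left out, its own weight and the smaller number of arrays cannot be told apart. OPS in pSHR minus p35S in air reversed to -0.014 with median centring and -0.019 with quantile normalization, and AT1G62500 in p35S minus total RNA to -0.0030 with centring. The count of stele genes called for the vascular mean against p35S in air was 2 with trended robust moderation or without the dimmest probe sets, against 1, and 0 to 1 with an array left out. For p35S against total RNA in air it was 1 to 2, against 3. Over all probe sets, p35S against total RNA in air gave 1438 calls, but 265 with the lysate as a replicate block, fitted to the p35S and total RNA arrays only. Those arrays gave 1273 without the block and 1201 with the air numbers crossed (both added after the data were seen; the numbered arrays correlated at -0.33), and all arrays gave 429 to 660 with an array left out. The vascular mean gave 1403 calls against pSCR, but 423 from the compared arrays alone and 177 to 1998 with an array left out, and 2042 against p35S, but 409 to 2058 with an array left out.

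A replicate block could only be taken from the shared numbers, which do not say whether arrays were paired. With it, p35S against total RNA in air gave 1424 calls, the vascular mean against p35S 2028, and PHV in p35S against total RNA in hypoxia had a limma adjusted p of 0.0543.

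With an array left out, LHW ran from -1.09 to -0.82 for the vascular mean against p35S and 1.32 to 1.73 for p35S against total RNA in air. It ran from -0.36 to 0.51 for hypoxia in pSCR, -0.22 to 0.60 in total RNA and -0.024 to 0.19 over the 4 lines, -0.22 to 0.29 for pSHR against p35S in hypoxia and -0.28 to 0.16 for pWOL against pSCR over both treatments. PHV against p35S in hypoxia ran from -0.31 to 0.40 in pWOL, -0.036 to 0.67 in pSHR and -0.60 to 0.11 in pSCR. OPS in air ran from -0.62 to 0.054 for pWOL against p35S, -0.13 to 0.14 for pSHR, -0.53 to 0.58 for pSCR and -0.31 to 0.029 for the vascular mean. Against pSCR in air OPS ran from -0.86 to 0.25 in pWOL, -0.57 to 0.53 in pSHR and -0.71 to 0.39 for the vascular mean, and over both treatments -0.43 to 0.12 in pWOL. Against total RNA in air it ran from -0.13 to 0.55 in pWOL and -0.039 to 1.07 in pSCR. Against p35S in hypoxia OPS in pSHR ran from -0.44 to 0.11, and the difference of their hypoxia responses from -0.44 to 0.11. For hypoxia minus air OPS ran from -0.60 to 0.072 in pWOL, -0.24 to 0.31 in pSHR and -0.58 to 0.021 in total RNA. AT1G62500 ran from -0.16 to 0.040 for pWOL against p35S, -0.016 to 0.14 for pSHR and -0.00022 to 0.079 for p35S against total RNA. EXPA18 in pSCR against p35S ran from -0.020 to 0.64, RCA in pSHR against p35S from -0.23 to 0.16, and RCA in hypoxia over the 4 lines from -0.23 to 0.020.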
